A study of Mus musculus with 6 samples.

Results

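The genes described here are 7 that serve the secretion of potassium into endolymph, the fluid on the apical side of hair cells: Kcnq1 and Kcne1 (pore and accessory subunit of the apical potassium channel), Slc12a2 (the basolateral cotransporter), Atp1b2 (a beta subunit of the Na,K-ATPase), Bsnd (barttin, the accessory subunit of the basolateral chloride channels), Kcnj10 (an inwardly rectifying potassium channel of strial intermediate cells, which also occurs in glia and supporting cells) and Esrrb, an orphan nuclear receptor known to control the marginal cell program. The rule that chose them went by name, with earlier results of these data known, and they were read through every probe set annotated to exactly 1 of them. This gave 13 probe sets for the 7 genes, out of 45037 probe sets in the table once controls were set aside.

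Endolymph is rich in potassium and is made by the marginal cells of the stria vascularis in the cochlea and by the dark cells beside the vestibular organs. In these secretory cells potassium enters across the basolateral membrane through the Na,K-ATPase and a sodium, potassium and chloride cotransporter, chloride leaves again through basolateral channels, and potassium passes into the endolymph through an apical channel. Loss of several of these transporters is a known cause of deafness and of balance defects in mice and humans.

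Log2 expression values came from 6 Affymetrix mouse arrays, 3 of cochlear and 3 of vestibular sensory epithelia. The mice were C3H, of wild type genotype and at postnatal day 2 throughout, and no treatment is named. Inner ears were pooled, and a vestibular pool joined saccule, utricle, lateral cristae and anterior cristae. In both tissues the epithelia kept the mesenchyme under them and the neurons attached to them. The sources used here do not say whether dark cells or stria vascularis were taken along, nor which pool each array read, so p-values measure the spread between arrays, which may in part be technical. The arrays of each tissue carried its markers. All 4 cochlear duct markers were higher in the cochlea and all 4 vestibular markers in the vestibule. Markers of hair cells, which both tissues hold, had mean log2 levels of 7.44 to 7.59 in the cochlea against 8.56 to 8.72 in the vestibule. The cochlear arrays resembled each other less than the vestibular arrays did (Pearson r across probe sets 0.98 to 0.99 and 0.99).

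A call required 2 things of a probe set, a p below 0.1 after Benjamini-Hochberg adjustment in the limma fit of the whole table and a 1.3-fold or larger difference between tissues. Each difference is the vestibular mean minus the cochlear mean on the log2 scale. Probe sets with a mean log2 value under 4.68 over all arrays were not tested, which left 12 of the 13. Of these 12, limma called 7 higher in the vestibule. It called 0 higher in the cochlea, and 0 also had an unadjusted p below 0.05 in that direction, 0 were called by a test without variance shrinkage, and 1 was called with array weights. Across all tested probe sets 12.0% were called with the vestibule higher and 7.37% with the cochlea higher. The 7 probe sets belonged to 5 of the 7 genes (Kcnq1, Kcne1, Bsnd, Atp1b2 and Esrrb), while no probe set of Slc12a2 or Kcnj10 passed. Read by its brightest probe set, 5 of 7 genes were higher in the vestibule, against 15.1% of all genes tested, and none was higher in the cochlea, against 7.97%. The median log2 difference was 1.35 over the 12 probe sets and 0 over all that were tested. In the same 7 probe sets all 3 vestibular arrays lay above all 3 cochlear arrays, and a separation of this kind, in either direction, was found in 27.4% of tested probe sets. The cochlear means of the 7 ran from 4.87 to 9.90, so that each would have passed the minimum of 4.68 on its cochlear arrays alone. With 3 arrays a side, the smallest two-sided p of an exact permutation test is 0.1, so single probe sets were judged only in the fit of the whole table.

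**Figure D1:**
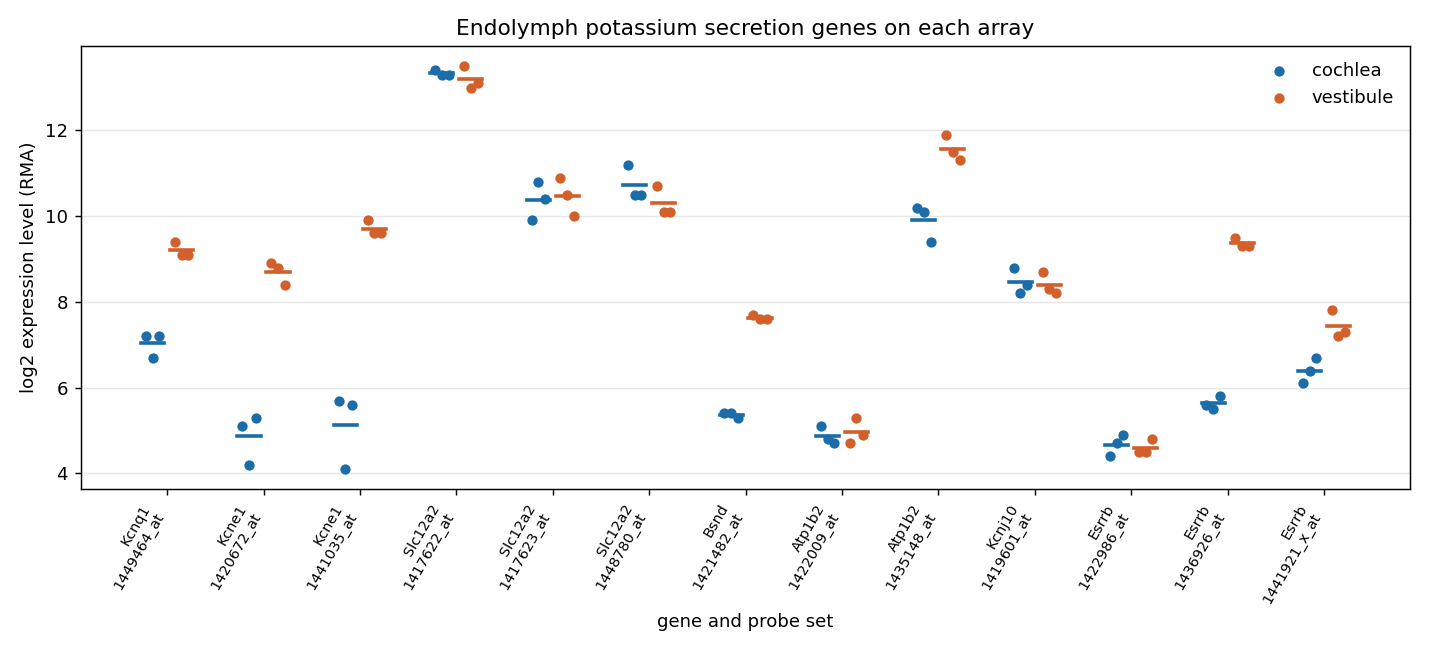
Log2 expression level (vertical axis) of the 13 probe sets of the 7 genes (horizontal axis), 1 point for each of the 3 cochlear and 3 vestibular arrays and a bar at each tissue mean. The 2 tissues lie apart for Kcnq1, both probe sets of Kcne1, Bsnd, the brighter probe set of Atp1b2 and 2 of 3 probe sets of Esrrb, and overlap for Slc12a2, Kcnj10, the dimmer probe set of Atp1b2 and the untested probe set of Esrrb.

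Transcripts of both subunits of the apical potassium channel were higher in the vestibule. Kcnq1, which forms the pore, read 7.2, 6.7 and 7.2 on cochlear arrays 1 to 3 and 9.4, 9.1 and 9.1 on the vestibular arrays. The tissues were separated by 1.9 at their nearest arrays. Its log2 difference was 2.17 (standard error 0.17, 95% confidence interval 1.79 to 2.55, adjusted p = 4.9e-05), a 4.49-fold higher level. In a bulk sample such as these, a smaller number of cells that express a gene and less RNA per cell cannot be told apart, which applies to every difference given here.

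Kcne1, whose product assembles with the Kcnq1 pore and slows its opening, was read by 2 probe sets. Its brighter probe set (1441035_at) read 5.7, 4.1 and 5.6 in the cochlea and 9.9, 9.6 and 9.6 in the vestibule. Cochlear array 2 lay well below the others, and even the highest cochlear value was 3.9 under the lowest vestibular one. The log2 difference was 4.57 (standard error 0.37, 95% confidence interval 3.72 to 5.41, adjusted p = 6.8e-05), or 23.7-fold, and only 8 tested probe sets had a larger one towards the vestibule. The second probe set (1420672_at) read 5.1, 4.2 and 5.3 against 8.9, 8.8 and 8.4. Cochlear array 2 was again the lowest, the gap was 3.1 and the difference was 3.83 (standard error 0.27, 95% confidence interval 3.21 to 4.45, adjusted p = 3.0e-05), or 14.3-fold. No detection calls were used here, so it is not known whether the lowest cochlear values of Kcne1 were above background, nor those of other dim probe sets such as that of Bsnd.

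Bsnd, the subunit that brings the basolateral chloride channels to the membrane, varied little within each tissue. It read 5.4, 5.4 and 5.3 in the cochlea and 7.7, 7.6 and 7.6 in the vestibule. Its spread was 0.06 (SD, n = 3 arrays) in either tissue, against a log2 difference of 2.27 (standard error 0.11, 95% confidence interval 2.03 to 2.51, adjusted p = 3.3e-06), or 4.81-fold. The values were written with 1 decimal, which does not allow a smaller nonzero spread over 3 arrays.

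Esrrb, the nuclear receptor gene, was read by 3 probe sets that did not behave alike. The brightest (1436926_at) read 5.6, 5.5 and 5.8 in the cochlea and 9.5, 9.3 and 9.3 in the vestibule. The tissues lay 3.5 apart at their nearest arrays, with a log2 difference of 3.73 (standard error 0.13, 95% confidence interval 3.45 to 4.02, adjusted p = 1.1e-06), or 13.3-fold. A second probe set (1441921_x_at), whose suffix marks probes that can also match other transcripts, read 6.1, 6.4 and 6.7 against 7.8, 7.2 and 7.3. It differed by 1.03 (standard error 0.20, adjusted p = 0.0078), and this call was lost in a test without variance shrinkage across probe sets (adjusted p = 0.106). The third (1422986_at) stayed low on every array, at 4.4, 4.7 and 4.9 in the cochlea and 4.5, 4.5 and 4.8 in the vestibule, and was not tested. The mean over the tested probe sets of Esrrb gave a difference of 2.38 (standard error 0.14, adjusted p = 4.6e-06).

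Sequence upstream of the annotated start was at hand for Esrrb and Kcnj10, that is, for 1 gene that was higher in the vestibule and 1 that was not. RefSeq (GRCm38.p6) annotates 2 starts of Esrrb, both on the plus strand, and the 250 bases before each and before the single start of Kcnj10 are shown 5′ to 3′. Capitals mark matches, on either strand, to the CCAAT box (letters CCAAT) or to the letters GGGCGG, known as a GC box.
Esrrb, first start, chr12:86360867-86361116, plus strand: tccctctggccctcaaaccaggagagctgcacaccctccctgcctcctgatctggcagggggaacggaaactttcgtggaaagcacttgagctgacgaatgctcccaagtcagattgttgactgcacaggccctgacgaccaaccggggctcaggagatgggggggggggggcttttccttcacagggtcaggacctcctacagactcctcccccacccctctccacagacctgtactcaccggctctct
Esrrb, second start, chr12:86421394-86421643, plus strand: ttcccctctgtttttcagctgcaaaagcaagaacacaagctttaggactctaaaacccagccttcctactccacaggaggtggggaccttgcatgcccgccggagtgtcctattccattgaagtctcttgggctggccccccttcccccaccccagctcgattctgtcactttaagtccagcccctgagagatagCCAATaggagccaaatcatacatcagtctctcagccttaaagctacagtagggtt
Kcnj10, chr1:172340960-172341209, plus strand: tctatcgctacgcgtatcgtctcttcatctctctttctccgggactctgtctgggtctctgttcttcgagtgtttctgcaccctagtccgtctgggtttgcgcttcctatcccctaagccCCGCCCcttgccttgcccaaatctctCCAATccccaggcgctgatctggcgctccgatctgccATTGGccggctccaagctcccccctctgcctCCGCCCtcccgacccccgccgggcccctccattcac

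The window of the first Esrrb start held neither motif, that of the second start held 1 CCAAT at positions -55 to -51 from the start, and that of Kcnj10 held 2 matches to CCAAT and 2 to GGGCGG. Of all 32851 windows of this length, 33.9% held CCAAT and 32.7% held GGGCGG. The TATA box letters TATAAA, found in 12.4% of windows, were in none of the 3. The letters AGGTCA, the core of the element that Esrrb and related receptors bind, were in none of the 3 either, and occurred in 14.0% of all windows, while TCAAGGTCA, which contains that core, occurred in 0.387%. The G and C content was 60.8% and 52.0% for the starts of Esrrb and 62.0% for Kcnj10, with a median of 52.4% over all windows. A match is a run of letters and not a shown binding site, and these windows cover only a small stretch before each start. The probe sets were not assigned to one or the other start of Esrrb.

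Atp1b2, a beta subunit needed to bring the Na,K-ATPase to the membrane, was higher in the vestibule at its bright probe set (1435148_at), with 10.2, 10.1 and 9.4 in the cochlea and 11.9, 11.5 and 11.3 in the vestibule. Cochlear array 3 was the low one here, while array 2 had been lowest for Kcnq1 and Kcne1. The tissues were 1.1 apart at their nearest arrays, and the log2 difference came to 1.67 (standard error 0.23, 95% confidence interval 1.14 to 2.20, adjusted p = 0.0013), or 3.17-fold. The other probe set (1422009_at) stayed between 4.7 and 5.3 on all arrays, with overlapping tissues and a difference of 0.10 (95% confidence interval -0.30 to 0.50, adjusted p = 0.763). The mean of both probe sets gave 0.88 (standard error 0.16, adjusted p = 0.0030).

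Slc12a2, which loads the secretory cell with potassium and chloride and is also found in other cells of the ear, overlapped between the tissues at all 3 of its probe sets. The brightest (1417622_at) read 13.4, 13.3 and 13.3 in the cochlea and 13.5, 13.0 and 13.1 in the vestibule, a difference of -0.13 (95% confidence interval -0.47 to 0.20, adjusted p = 0.608). The interval takes in differences past the 1.3-fold minimum towards the cochlea. The dimmest (1417623_at) read 9.9, 10.8 and 10.4 against 10.9, 10.5 and 10.0, a difference of 0.10 (95% confidence interval -0.51 to 0.71, adjusted p = 0.855). The third (1448780_at) read 11.2, 10.5 and 10.5 against 10.7, 10.1 and 10.1, lower in the vestibule by the mean at -0.43 (95% confidence interval -0.96 to 0.10, adjusted p = 0.267). That probe set was called higher in the cochlea with array weights (-0.64, adjusted p = 0.0857).

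Kcnj10 showed overlapping tissues as well, with 8.8, 8.2 and 8.4 in the cochlea and 8.7, 8.3 and 8.2 in the vestibule. Its log2 difference was -0.07 (95% confidence interval -0.49 to 0.36, adjusted p = 0.867). Array 1 gave the highest value in both tissues, as it did for the brightest probe sets of Kcne1, Atp1b2 and Slc12a2. This order was therefore not particular to Kcnj10. The mean of the Schwann cell and satellite glia markers was highest on array 1 too. It was 9.99 there against 9.64 on each of the other cochlear arrays, and 10.53 against 10.00 and 10.09 in the vestibule. The mean of the cochlear duct markers was also highest on array 1 in both tissues. It was 13.175, 13.15 and 12.65 on cochlear arrays 1 to 3 and 9.625, 9.6 and 9.55 on the vestibular arrays. The order was therefore not particular to glia either, and the part of glia in the level of Kcnj10 was not tested.

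**Figure D2:**
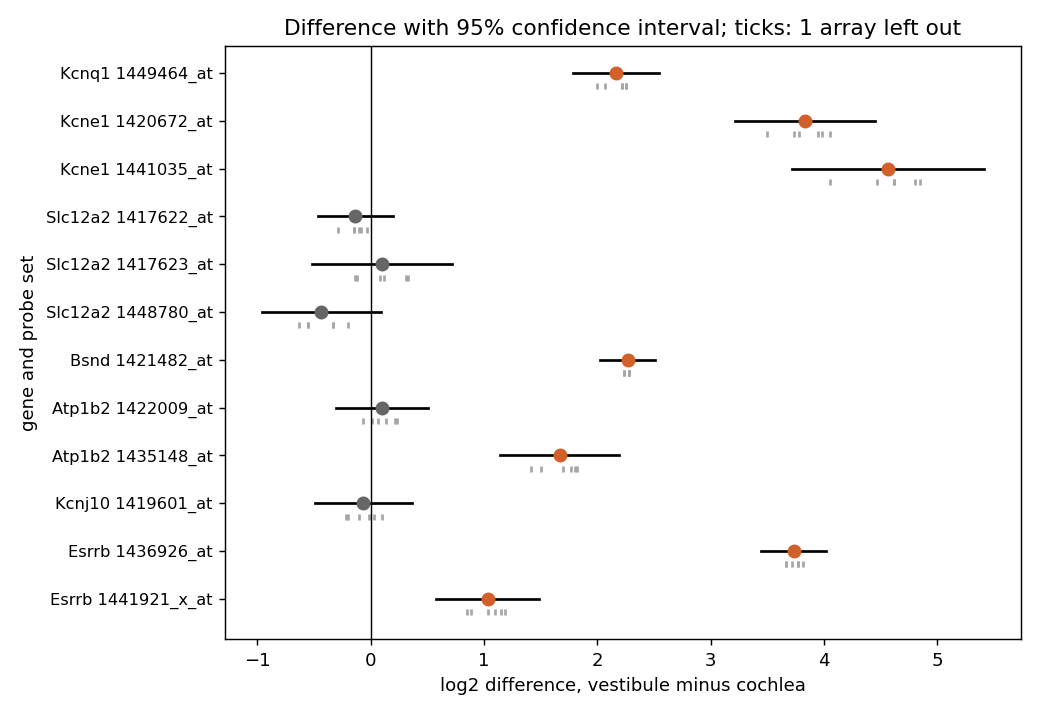
Log2 difference of vestibule minus cochlea (horizontal axis) for the 12 tested probe sets (vertical axis), with lines for the 95% confidence interval of the limma fit, orange points for probe sets called higher in the vestibule and grey points for the rest. Grey ticks give the difference with 1 of the 6 arrays left out in turn; those of the 7 called probe sets stay between 0.85 and 4.85.

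With any 1 array left out all 7 probe sets kept their call. The difference of Kcnq1 then ran from 2.00 to 2.25, those of Kcne1 from 4.05 to 4.85 and from 3.50 to 4.05, that of Bsnd from 2.23 to 2.28, that of Atp1b2 from 1.42 to 1.82 and those of Esrrb from 3.67 to 3.82 and from 0.85 to 1.18. The lowest value of both Kcne1 probe sets came without cochlear array 2.

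The genes whose profile over the 6 arrays was most like that of each member were taken from 14184 genes, each by its brightest probe set, after every profile was centred on its own mean. Likeness was the root mean square difference between centred profiles in log2 units, a measure that mostly follows the size of the tissue difference. Nearest to Kcne1 were the neurokinin receptor gene Tacr3 (0.33), the homeobox gene Meis2 (0.33) and the matrix gene Vit (0.42). These distances were larger than those of any other member. Nearest to Esrrb were the calcium binding protein gene Cabp2 (0.07), Aldh1a3, which makes retinoic acid (0.09), and the secreted Wnt signalling enhancer gene Rspo3 (0.12). Nearest to Kcnq1 were Lrtm2 (0.07), the ciliary dynein gene Dnah11 (0.13) and Meig1 (0.14), and nearest to Bsnd were Thsd4 (0.10), Ccdc96 (0.11) and Anks1b (0.11). Ltbp1 (0.14), the tubulin gene Tuba4a (0.14) and the adhesion receptor gene Adgrd1 (0.14) were nearest to Atp1b2. The nearest genes of Slc12a2 (Kif13a, Celsr2 and Gtpbp10, 0.05 to 0.07) and of Kcnj10 (Rnf103, Mpp6 and Trim56, 0.07 to 0.08) had differences between -0.13 and -0.03.

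A list of other genes of endolymph ion transport was drawn up from textbook knowledge, with earlier results of these data known. Its 54 genes placed these results among their partners. A probe set with 1 gene named 44 of them and 37 were tested. Of the 37, 12 were higher in the vestibule, 5 were higher in the cochlea and 20 did not pass, beside 15.1% and 7.97% of all genes tested, and the median log2 difference was 0.10 against 0.03 over all genes. Of the 4 relatives of Kcne1 in the list 2 were too dim to be tested, Kcne3 and Kcne1l. Both that were tested were higher in the vestibule, Kcne2, an accessory subunit that can join Kcnq1, at 1.60 (adjusted p = 0.0017) and Kcne4, which can inhibit the channel, at 0.50 (adjusted p = 0.022). The other tested pores of the family, Kcnq3 and Kcnq5, had differences of -0.03 and -0.27 and did not pass.

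Among the pump genes Atp1b3, another beta subunit, was higher in the vestibule at 0.93 and the regulatory subunit gene Fxyd5 at 1.10, while the regulatory subunit gene Fxyd7 was higher in the cochlea at -0.83. Atp1b1, the most widely used beta subunit, differed by -0.30 (95% confidence interval -0.69 to 0.09, adjusted p = 0.293). None of the alpha subunit genes was tested. Of the inward rectifiers, Kcnj16, whose product pairs with that of Kcnj10, was higher in the vestibule at 1.17 (adjusted p = 0.021), and Kcnj13 was higher in the cochlea at -1.20 (adjusted p = 7.4e-04). The calcium-activated chloride channel gene Ano1 had the largest cochlear difference in the list, at -2.63 (standard error 0.15, adjusted p = 1.1e-05).

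Of the relatives of Slc12a2, the potassium and chloride cotransporter gene Slc12a7 was higher in the cochlea at -0.53 (adjusted p = 0.023) and 3 others did not pass. Of the 6 kinases that set the activity of such cotransporters only Wnk2 passed, higher in the vestibule at 1.03. The relative of Esrrb, Esrrg, was higher in the cochlea at -1.83 (standard error 0.13, adjusted p = 3.0e-05), opposite to Esrrb, and Esrra at 0.20 did not pass. Among connexin genes of the potassium recycling network Gja1 at 2.33 and Gjb6 at 1.13 were higher in the vestibule, while Gjb2 differed by -0.30 and did not pass. Also higher in the vestibule were Slc26a4 (pendrin, the anion exchanger) at 1.97, Cldn11 (the tight junction protein of strial basal cells) at 1.43, the sodium channel subunit gene Scnn1b at 0.67 and P2rx2, an ATP-gated cation channel gene, at 0.47. Lrp2, an endocytic receptor of the marginal cell apex, differed by -0.03 and did not pass.

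**Figure D3:**
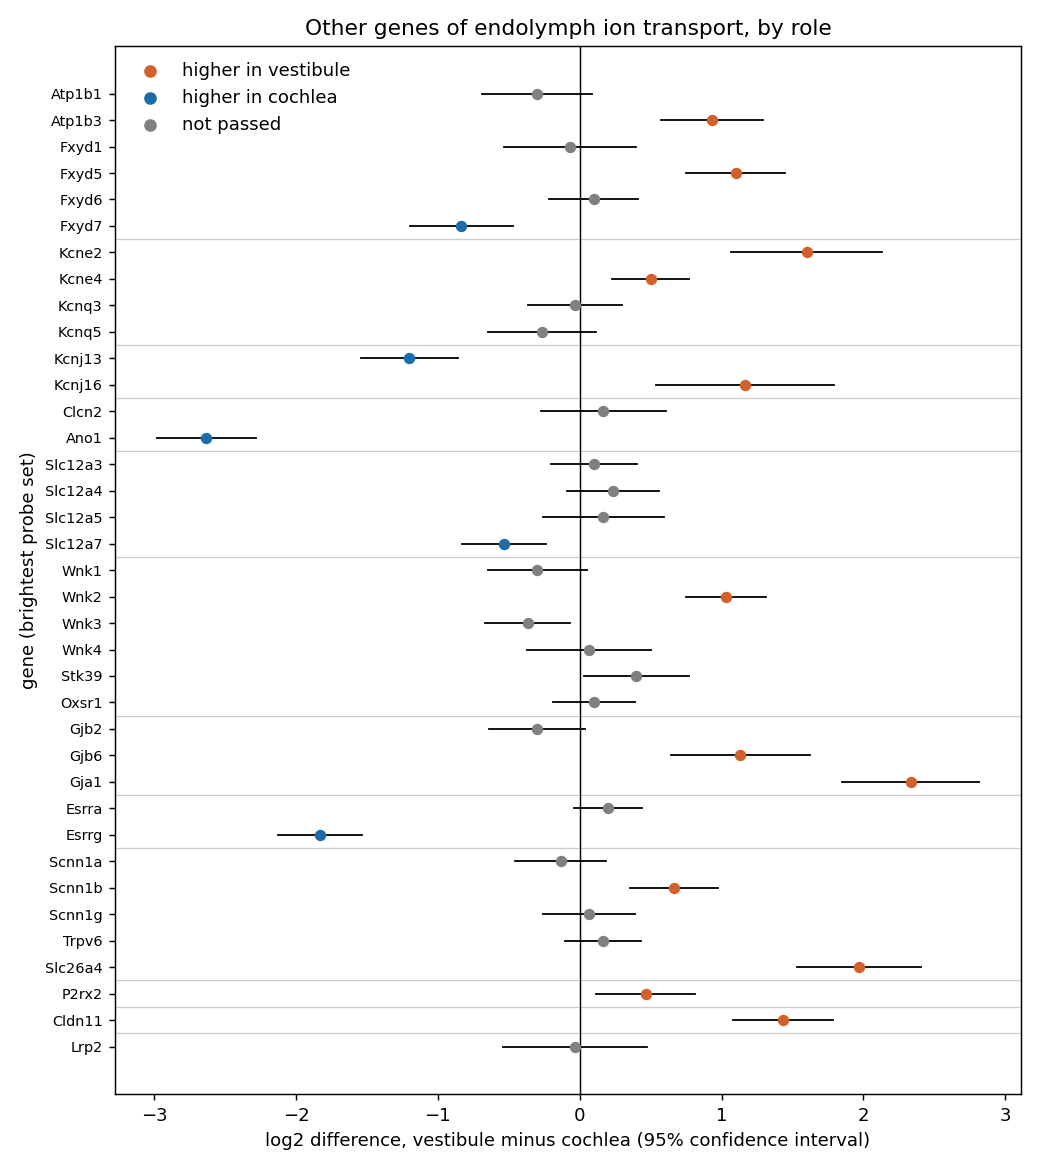
Log2 difference of vestibule minus cochlea (horizontal axis) for the 37 tested genes of the endolymph ion transport list (vertical axis), each by its brightest probe set with its 95% confidence interval, with lines between groups of like role. Orange marks the 12 genes higher in the vestibule, blue the 5 higher in the cochlea and grey the 20 that did not pass.

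Markers of other cell types also differed between the tissues, and their part in the differences of the endolymph genes was not tested. Melanocyte and strial intermediate cell markers were higher in the vestibule for 7 of 10 genes, with Pmel at 2.27 and Mlana at 1.93, and Oca2 ran the other way at -1.70. Their mean log2 level was 6.75 to 7.14 on the cochlear and 7.71 to 7.89 on the vestibular arrays. Within the cochlea it was lowest on array 2, as were Kcnq1, both probe sets of Kcne1, Kcnj10 and the brightest probe set of Esrrb. The brighter probe set of Atp1b2 was lowest on array 3, and so, by the last decimal, was Bsnd (5.4, 5.4 and 5.3). The brightest probe set of Slc12a2 read 13.3 on both array 2 and array 3. Within the vestibule the order was not shared. The marker mean was 7.71, 7.89 and 7.81 on arrays 1 to 3, whereas the brightest probe set of every member was highest on array 1. Hair cell markers were higher in the vestibule for 8 of 12 genes and cochlear supporting cell markers higher in the cochlea for 4 of 7. Schwann cell and satellite glia markers were split, with 3 of 9 higher in the vestibule and 2 lower there, and lateral wall fibrocyte markers were higher in the vestibule for 3 of 6 and in the cochlea for 1, Otos, at -2.40. Macrophage markers were higher in the vestibule for 7 of 7, endothelial markers for 4 of 6, with Emcn higher in the cochlea at -1.57, and mesenchymal markers for 4 of 7, with Lum higher in the cochlea at -0.97, while neuronal markers were higher in the cochlea for 9 of 10. Mean levels of the macrophage markers were 7.04 to 7.41 on the cochlear and 8.73 to 9.04 on the vestibular arrays, and those of the neuronal markers were 8.46 to 8.95 and 7.13 to 7.37. The fibrocyte markers, at 9.10 to 9.73 and 9.93 to 10.05, were lowest on cochlear array 2 as well. Background is not 0 on this scale, so the absence of a marker could not be read.

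**Figure D4:**
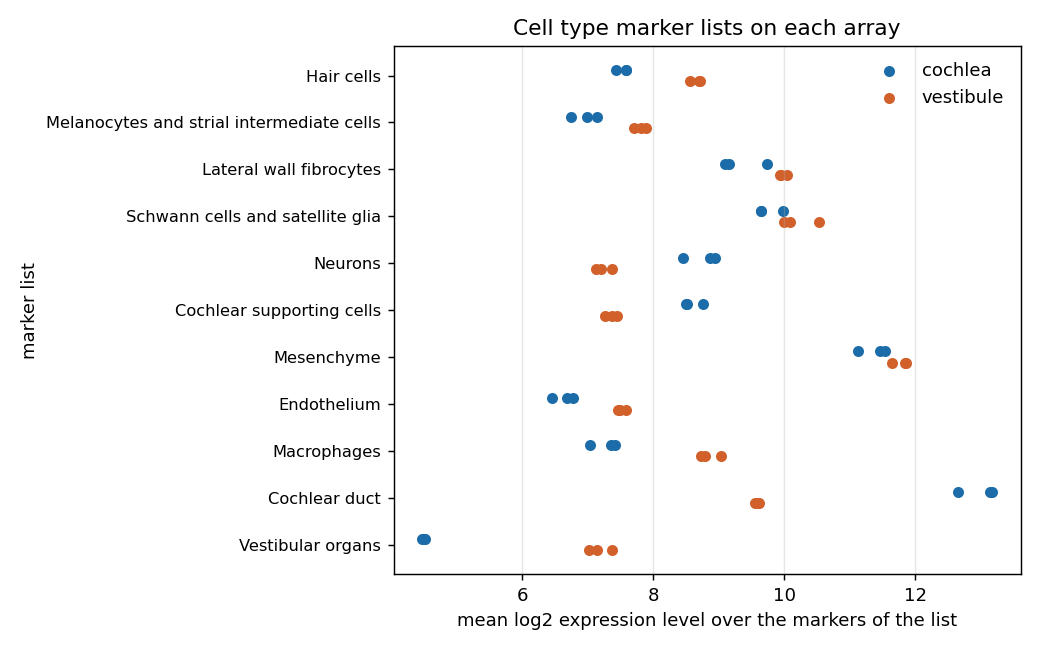
Mean log2 expression level over the markers of each list (horizontal axis) for 11 marker lists (vertical axis), 1 point for each of the 3 cochlear arrays in blue and the 3 vestibular arrays in orange. Melanocyte and strial intermediate cell markers lie at 7.71 to 7.89 on the vestibular arrays against 6.75 to 7.14 on the cochlear arrays, and neuronal markers lie the other way.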

How the data were processed

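From total RNA, amplified in 2 cycles, the authors obtained Affymetrix array data and deposited log2 values made by RMA with quantile normalization, written with 1 decimal; RMA and MAS5 are named in the submitters' processing notes, with no version. The values were used as deposited. GEO's platform annotation names 1 gene for 34945 probe sets, several for 932 and none for 9160, and 34741 symbols were updated through Entrez numbers. The authors' filter on Present calls could not be repeated. In its place the tests covered 29636 probe sets, as many as that filter kept, taken in order of mean level from the top once 64 controls were dropped. Tissues were compared with limma 3.58.1 (lmFit, eBayes, two-sided) in R 4.3.3, adjusted over all tested probe sets by Benjamini-Hochberg, after a check on simulated data. The members, the gene lists and the marker lists were chosen with earlier results of these data known.

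All probe sets of the members were named, the called genes of the transport list, the 3 nearest genes of each member and up to 3 genes of a marker list; other names were chosen after their values were seen. Alternatives were no filter, only the brightest 20000, centring on the median, quantile normalization once more, limma with a trend or array weights, a plain t-test, a replicate block, each array left out, an adjusted p under 0.05, no minimum fold and averaging the probe sets of each gene. Python 3.11.15, pandas 2.3.3, numpy 2.4.6 and matplotlib 3.10.9 were used for motif counts and figures. The 3 arrays per tissue limit the precision.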

Additional observations from a re-analysis of the deposited data

How the results depend on the processing

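The count of 7 probe sets of the endolymph genes called higher in the vestibule was 5 to 7 under all 17 alternatives. With the replicate block and in the plain t-test it was 6, since the second probe set of Esrrb (1441921_x_at) lost its call (adjusted p = 0.106 in each), and 5 of 7 genes after averaging the probe sets of each gene. The count higher in the cochlea was 1 with array weights and with the replicate block, from Slc12a2 (1448780_at, adjusted p = 0.0857 and 0.0483). Same-numbered arrays did not deviate together throughout (correlations of 0.22, 0.15 and 0.00), so the numbers were not taken as pairs, and not every array correlated best with its own number. Over all tested probe sets the plain t-test called 2195 for the vestibule and 1322 for the cochlea, and with 1 array left out the counts ran from 2359 to 3865 and from 1415 to 2787, the lowest without vestibule replicate 1. Centring on the median gave 3154 and 2550, and quantile normalization once more 3249 and 2847, in place of 3563 and 2184. Only differences without a call changed sign, and the causes were not tested. Without 1 array Slc12a2 (1417623_at) ran from -0.13 to 0.33, Kcnj10 from -0.22 to 0.10 and Atp1b2 (1422009_at) from -0.067 to 0.23, and with array weights the last was -0.023. The values hold no detection calls, so it is not known which dim values lay above background.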
